A study of Mus musculus with 3 samples.

Results

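Transcripts of 48 regulators of DNA methylation, Polycomb repression and chromatin structure were described in NIH3T3, a mouse fibroblast line in wide laboratory use. The members were given as a list of gene names, and each name was found once in the deposited table, so 48 of 55573 genes are covered. The measurement was UMI-RNAseq of 3 libraries from untreated cells grown in DMEM with fetal bovine serum, named library 1, library 2 and library 3 after their replicate numbers. The libraries share 1 condition and no treatment or genotype was compared. Whether each library had its own culture is not given in the sources used here, and every SD and p-value below may therefore measure technical spread alone. In UMI-RNAseq, a random tag (unique molecular identifier, UMI) on each molecule lets PCR copies be removed. The deposited unit is FPKM, in which fragments are divided by gene length in kilobases and by the library total in units of 1000000. FPKM is a level of RNA, and fewer cells that transcribe a gene and less RNA per cell cannot be told apart in it.

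The labels give the cell line as NIH3T3, whereas their extraction text mentions retina. Of 12 fibroblast markers, 11 had an FPKM of at least 1 in every library, and their summed level was 9846 to 9970 FPKM. Postn, a fibroblast matrix gene, was the exception with a mean of 0.494 FPKM. The summed level of 12 retina markers was 1.01 to 1.61 FPKM, and Nrl and Pax6 were among those listed at 0. The libraries held 14423209, 13959723 and 14307241 fragments behind the FPKM values, and the members took 0.723% to 0.734% of them.

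In mammals, DNA methyltransferases place methyl groups on the cytosine of CG dinucleotides, TET dioxygenases oxidise them, and MBD proteins include readers of the mark. Polycomb repressive complex PRC2 methylates histone H3 at lysine 27, and PRC1, which carries a RING ubiquitin ligase and in its canonical forms a CBX reader of that mark, ubiquitinates histone H2A. HP1 proteins bind H3 methylated at lysine 9, the mark of heterochromatin. Histone deacetylases (HDACs) and the acetyltransferases p300 and CBP set the level of acetylation, SWI/SNF complexes move nucleosomes with the energy of ATP, and HMGA proteins bend AT-rich DNA. Many of these functions are held by pairs or small families of related genes (paralogs), so the members are described by complex and by paralog.

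Because CG dinucleotides are the substrate of the methylation enzymes described here, the letters at the start of the genes are shown first for 3 contrasting pairs of relatives. Each RefSeq window of GRCm38.p6 runs from 250 bases before to 50 bases after an annotated gene start. The sequences are written 5′ to 3′ on the strand of the gene, with every CG in capitals. The Cbx6 window lies at chr15:79834284-79834583 and that of its neighbour Cbx7 at chr15:79932597-79932896, both on the minus strand, and these PRC1 genes had the highest and the lowest level among the Polycomb members. The Dnmt3b window (chr2:153649199-153649498) and the first of 3 Dnmt3l windows (chr10:78042037-78042336) lie on the plus strand and belong to the DNA methyltransferases with the lowest levels. The first of 2 Hmga1 windows (chr17:27556324-27556623, plus strand) and the Hmga2 window (chr10:120476420-120476719, minus strand) belong to the most abundant members.
Cbx6: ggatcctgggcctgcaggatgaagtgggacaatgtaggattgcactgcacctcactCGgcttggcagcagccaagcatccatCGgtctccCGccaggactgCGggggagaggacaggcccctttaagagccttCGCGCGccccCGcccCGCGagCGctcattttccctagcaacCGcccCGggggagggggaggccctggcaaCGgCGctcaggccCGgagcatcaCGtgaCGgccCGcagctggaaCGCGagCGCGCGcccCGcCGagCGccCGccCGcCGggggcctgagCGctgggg
Cbx7: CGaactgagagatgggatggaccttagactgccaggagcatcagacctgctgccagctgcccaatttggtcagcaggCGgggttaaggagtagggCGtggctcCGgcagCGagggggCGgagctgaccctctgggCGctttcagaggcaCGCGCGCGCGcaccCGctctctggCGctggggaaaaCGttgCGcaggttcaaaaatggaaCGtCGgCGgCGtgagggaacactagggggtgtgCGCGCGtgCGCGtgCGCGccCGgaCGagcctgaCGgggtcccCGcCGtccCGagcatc
Dnmt3b: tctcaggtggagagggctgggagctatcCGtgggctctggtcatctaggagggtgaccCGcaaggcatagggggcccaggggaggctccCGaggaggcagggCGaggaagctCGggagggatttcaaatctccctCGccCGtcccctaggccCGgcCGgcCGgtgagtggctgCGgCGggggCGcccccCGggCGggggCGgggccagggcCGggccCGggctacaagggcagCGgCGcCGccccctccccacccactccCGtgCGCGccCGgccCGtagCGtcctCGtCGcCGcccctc
Dnmt3l: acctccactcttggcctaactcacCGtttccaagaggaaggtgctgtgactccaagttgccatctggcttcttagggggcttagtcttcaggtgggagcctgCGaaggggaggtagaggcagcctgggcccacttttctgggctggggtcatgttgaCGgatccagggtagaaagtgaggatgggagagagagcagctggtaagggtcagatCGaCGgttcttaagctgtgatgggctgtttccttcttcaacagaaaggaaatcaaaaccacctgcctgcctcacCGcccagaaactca
Hmga1: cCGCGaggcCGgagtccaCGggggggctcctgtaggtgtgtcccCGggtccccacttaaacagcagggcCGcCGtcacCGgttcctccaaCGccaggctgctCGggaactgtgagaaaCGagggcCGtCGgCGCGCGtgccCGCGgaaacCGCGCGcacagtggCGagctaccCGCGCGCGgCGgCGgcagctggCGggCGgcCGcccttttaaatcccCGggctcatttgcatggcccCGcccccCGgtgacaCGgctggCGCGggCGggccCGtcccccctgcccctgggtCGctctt
Hmga2: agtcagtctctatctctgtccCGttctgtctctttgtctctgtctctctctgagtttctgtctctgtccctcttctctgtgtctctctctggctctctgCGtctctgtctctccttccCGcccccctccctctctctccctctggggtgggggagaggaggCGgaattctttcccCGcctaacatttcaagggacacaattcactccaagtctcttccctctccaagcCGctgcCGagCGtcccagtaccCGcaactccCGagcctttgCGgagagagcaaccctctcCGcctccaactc

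The Cbx6 window held 31 CG and the Cbx7 window 33. The Dnmt3b window held 30, against 6 in the Dnmt3l window shown and 4 and 3 in the other Dnmt3l windows. Hmga1 had 40 in the window shown, and Hmga2, which has long runs of t and c on its strand, had 12. RefSeq windows were used for 43 of the members, 60 windows in all. Windows for Hdac1, Hdac3, Cbx2, Mbd1 and Mbd2 were not used here. Member windows on chromosome 18, where Hdac3, Mbd1 and Mbd2 lie, were left out, without such a filter over all genes. CG reads the same on both strands, and 94.6% of the 32851 windows of all genes held at least 1. The median was 28.5 CG per member window against 7 over all genes. At least 15 CG were found in 49 of the 60 member windows (81.7%), against 34.6% of all windows. The genes differ in how many starts they list, and these shares describe letters, not methylation, which was not measured.

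Nearly all of the listed regulators were detected. An FPKM of at least 1 in every library was reached by 45 of the 48 members (93.8%), against 22.2% of all genes and 48.5% of protein-coding genes. At least 10 FPKM in every library was reached by 40 members (83.3%), against 14.4% of all genes and 34.8% of protein-coding genes. The list was chosen with earlier results of these data known, so these shares describe it and test nothing. Over the 45 members with a mean of at least 1 FPKM, the median of the mean level was 42.2 FPKM, and over the 12905 genes with a mean of at least 1 FPKM it was 17.5. The exceptions were Cbx7, Dnmt3l and Hdac9. Among the members, 5 lay above 100 FPKM on average, namely Hmga1, Hmga2, Trim28, Cbx3 and Ehmt2, and 29 lay between 20 and 100. Hmga1 and Hmga2 together held 41.6% to 42.3% of the members' fragments.

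**Figure D1:**
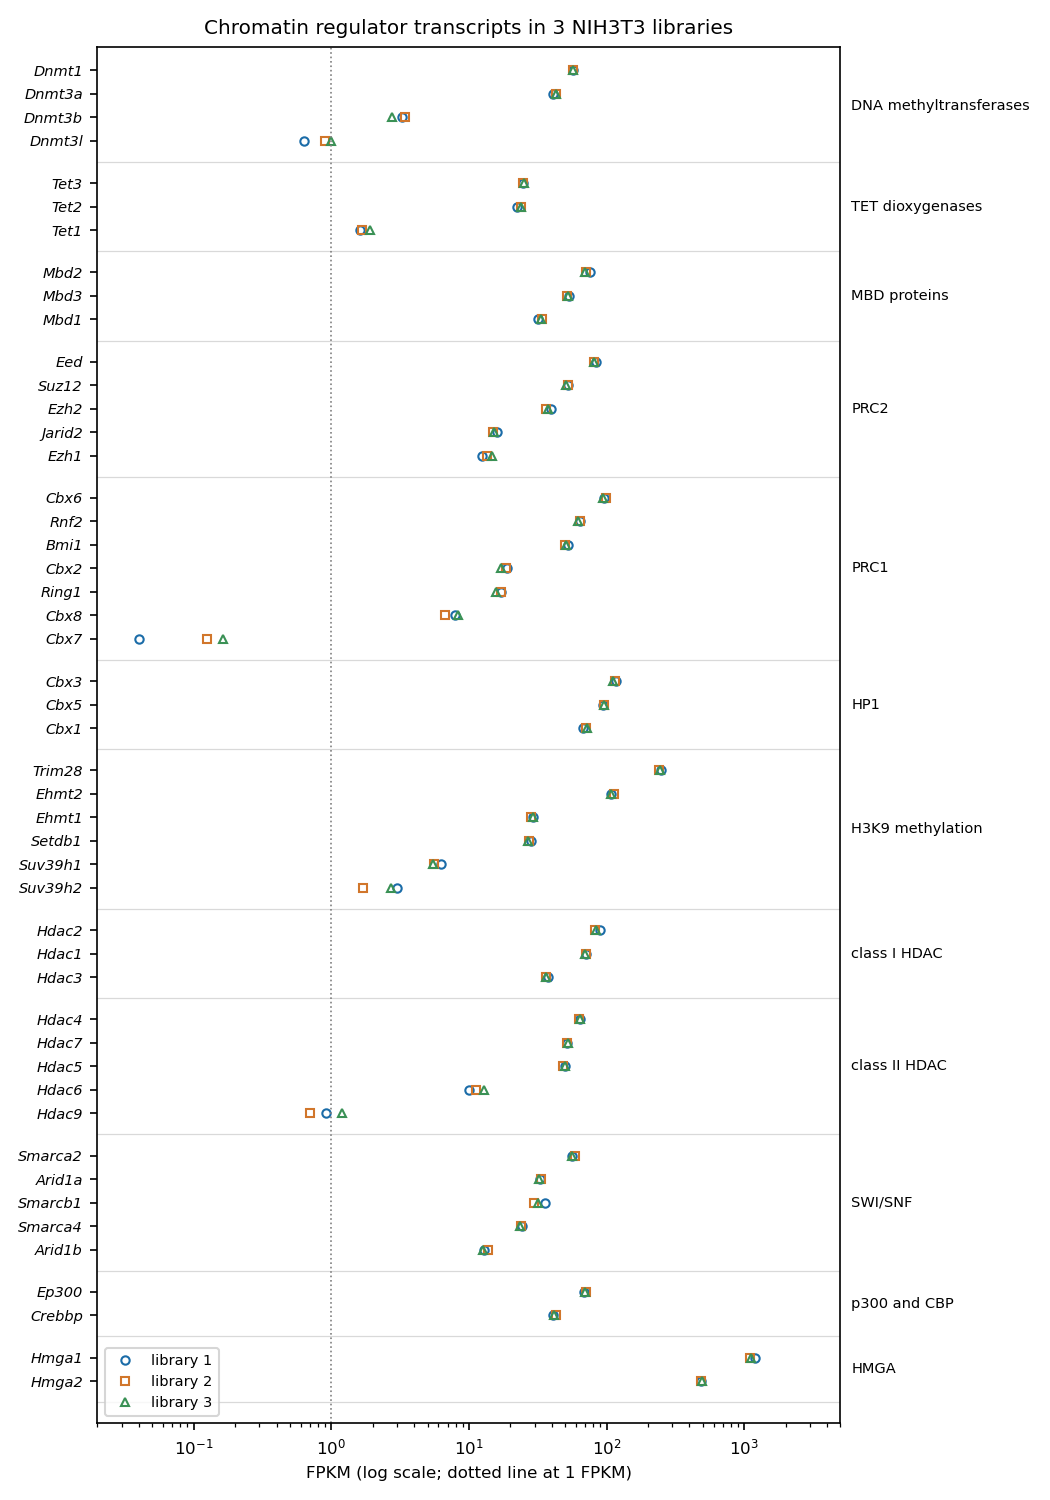
FPKM of each member (horizontal axis, log scale) in library 1 (circles), library 2 (squares) and library 3 (triangles), grouped by complex and ordered by mean level. Most members lie between 10 and 100 FPKM with their 3 symbols close together, while Cbx7 (0.0403 to 0.163 FPKM), Dnmt3l and Hdac9 lie below the dotted line at 1 FPKM in at least 1 library.

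Related genes were compared as ratios of FPKM within each library, for 21 pairs. The direction was the same in all 3 libraries for each of the 21 pairs, and in 13 pairs the mean ratio exceeded 2 in one direction. For every pair, flipping the signs of the log2 ratios (exact permutation test, two-sided) gave p = 0.25, and 0.25 again after Benjamini-Hochberg adjustment over the pairs. With 3 libraries no smaller p can be reached, none of the ratios could pass 0.05, and the values of each library are given instead. The level also depends on the gene length that the authors divided by, which equals the mean length of the annotated isoforms. The longest isoform of a member was 1.05 to 4.38 times this mean length, with a median of 2.21. Where the longest isoform or undivided fragments turned the order of a pair, this is said beside it.

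Among the DNA methyltransferases, the maintenance enzyme Dnmt1 and the de novo enzyme Dnmt3a were both abundant, and the other genes of the family were low. Dnmt1 (ENSMUSG00000004099, chr9:20907209-20959888 of GRCm38, minus strand) had 57.0, 56.9 and 57.4 FPKM in libraries 1, 2 and 3. Dnmt3a (ENSMUSG00000020661, chr12:3806007-3914443, plus strand) had 41.0, 42.7 and 43.0 FPKM. The lowest Dnmt1 value lay above the highest Dnmt3a value, with a ratio of 1.35 ± 0.0313 (SD, n = 3). With the longest isoform, the log2 ratio of Dnmt1 to Dnmt3a was 1.75, against 0.44 as deposited. Dnmt3b, the other de novo enzyme, had 3.28, 3.43 and 2.75 FPKM. Dnmt3a exceeded it by 12.5-fold, 12.5-fold and 15.6-fold, a difference far beyond the spread between libraries. With the longest isoform the log2 ratio of Dnmt3a to Dnmt3b fell from 3.75 to 1.98. Dnmt3l, a cofactor of the de novo enzymes without catalytic activity that is best known from germ cells, had 0.634, 0.894 and 0.989 FPKM. These values rest on 11, 15 and 17 fragments. Their exact Clopper-Pearson 95% intervals, which cover counting error only, were 0.317 to 1.14, 0.50 to 1.47 and 0.576 to 1.58 FPKM. The intervals overlapped, and this depth could not show a difference in Dnmt3l between the libraries. Of the words of 75 nt in the Dnmt3b isoforms, 6.17% also occur in the neighbouring paralog Dnmt3c, which was listed at 0.

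The TET genes showed 2 members at close levels and 1 far lower. Tet3 had 24.7, 24.8 and 25.1 FPKM and Tet2 had 22.3, 23.8 and 23.8. Their ratio was 1.11, 1.04 and 1.05, or 0.09 ± 0.05 (SD, n = 3) on the log2 scale, so Tet3 lay slightly higher. The counting interval of the ratio was 1.03 to 1.20 in the first library but included 1 in the others (0.966 to 1.12 and 0.979 to 1.13), where the direction was within counting error. Tet1, known from embryonic stem cells, had 1.63, 1.68 and 1.91 FPKM, on 80, 80 and 93 fragments. Tet2 lay 13.4-fold ± 0.867 (SD, n = 3) above Tet1. The gene start of Tet2 had the most CG of any member window, with 57, against 17 for Tet1 and 22 for Tet3.

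The MBD genes were all well above 10 FPKM. Mbd2, which binds methylated DNA, was highest with 75.8, 71.3 and 69.7 FPKM. Mbd3, a subunit of the NuRD complex that in mammals binds methylated CG poorly, followed with 53.1, 51.9 and 52.7 FPKM. Mbd1 had 31.6, 33.9 and 33.4 FPKM. The ranges of the 3 genes did not overlap. By fragments, Mbd1 had more than Mbd3, with 978, 1016 and 1027 against 895, 847 and 881. Mbd2 exceeded Mbd1 by 2.20-fold ± 0.176 (SD, n = 3) and Mbd3 lay at 0.728 ± 0.0275 (SD, n = 3) of Mbd2. Undivided fragments left a log2 ratio of 0.08 for Mbd2 to Mbd1, against 1.13, and the longest isoform left -0.05 for Mbd3 to Mbd2, against -0.46.

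Of the genes that work with DNA methylation but are not members, a list of 5 was examined. All 5 had at least 1 FPKM in every library and 3 had at least 10. Uhrf1, which recruits DNMT1 to hemimethylated DNA, was highest at 41.3 ± 1.15 FPKM (SD, n = 3), and the glycosylase gene Mbd4 was lowest at 4.23 ± 0.0554 (SD, n = 3).

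All core genes of PRC2 were transcribed, and the catalytic paralogs differed. Eed, the WD40 subunit that binds trimethylated lysine 27, had 83.6, 81.1 and 80.5 FPKM. Suz12, the scaffold subunit, had 52.8, 52.2 and 50.5 FPKM. Ezh2, the methyltransferase prominent in dividing cells, had 39.3, 36.5 and 37.8 FPKM, and its paralog Ezh1 had 12.5, 13.6 and 14.6. Ezh2 exceeded Ezh1 by 3.13-fold, 2.69-fold and 2.59-fold, and the ranges of the genes were far apart. Jarid2, a DNA-binding accessory subunit, had 15.9, 15.1 and 15.2 FPKM, above Ezh1 in each library. The order Eed, Suz12, Ezh2, Jarid2, Ezh1 was the same in the 3 libraries, without overlap between neighbours. The longest isoforms turned the order of Jarid2 and Ezh1, to 3.98 and 5.80 FPKM on average. Eed is divided by a mean isoform length of only 814 nt, against 2067 nt for its longest isoform. By fragments, Suz12 had more than Eed, with 1394, 1334 and 1321 against 982, 922 and 938.

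Genes around PRC2 that are not members were also transcribed, with 6 of 6 at 1 FPKM or more in every library. The histone chaperone gene Rbbp7 had the highest level of this list, 240.5 ± 3.34 FPKM (SD, n = 3), and the accessory gene Phf19 the lowest, 2.47 ± 0.366 (SD, n = 3).

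Within PRC1, the ring and CBX positions were each dominated by 1 paralog. Rnf2 (RING1B), the main ubiquitin ligase, had 64.2, 63.8 and 62.0 FPKM, and its paralog Ring1 had 17.0, 17.1 and 15.7. Rnf2 lay 3.82-fold ± 0.108 (SD, n = 3) higher. Bmi1 (PCGF4), a partner of the ligase in canonical PRC1, had 52.4, 49.8 and 51.0 FPKM. Bmi1 is best known for silencing the Ink4a-Arf locus.

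Of the 4 Polycomb CBX genes on the list, Cbx6 was the highest by far. Cbx6 (ENSMUSG00000089715, chr15:79823896-79834688 of GRCm38, minus strand) had 95.5, 98.3 and 93.9 FPKM, which was 78.7% ± 0.782 (SD, n = 3) of the sum over Cbx2, Cbx6, Cbx7 and Cbx8. Cbx2 had 18.9, 18.4 and 17.2 FPKM, and Cbx8 had 7.93, 6.71 and 8.38. Cbx7 (ENSMUSG00000053411, chr15:79915807-79971119, minus strand), a reader that supports proliferation by Ink4a-Arf repression in other cells, had 0.0403, 0.125 and 0.163 FPKM. It rests on 1, 3 and 4 fragments, 8 in all. The exact Clopper-Pearson 95% intervals of 0.00102 to 0.225, 0.0258 to 0.365 and 0.0443 to 0.416 FPKM overlapped. The ratio of Cbx6 to Cbx7 was 2369, 786.5 and 577.1. Its counting intervals were 424.8 to 93586, 268.9 to 3816 and 225.2 to 2119, so its size is known only roughly. The CG counts of both windows printed above, 31 and 33, were close.

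The other PRC1 genes examined, a list of 12, all reached 10 FPKM in every library. Phc2, a Polyhomeotic subunit, was highest with 103.8 ± 2.62 FPKM (SD, n = 3).

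All HP1 genes were abundant. Cbx3 (HP1γ) had 117.6, 114.7 and 110.4 FPKM, Cbx5 (HP1α) had 93.9, 96.1 and 95.8, and Cbx1 (HP1β) had 67.7, 70.4 and 72.3. The ranges of the genes did not overlap. The ratio of Cbx3 to Cbx5 was 1.20 ± 0.0504 (SD, n = 3) and that of Cbx1 to Cbx5 0.736 ± 0.0169 (SD, n = 3). This order rests on length. Cbx5 had the most fragments of the family, 4734, 4690 and 4793, against 2380, 2246 and 2217 for Cbx3, and undivided fragments reversed the first ratio to -1.06 on the log2 scale. With the longest isoform the log2 ratio of Cbx1 to Cbx5 reversed from -0.44 to 0.16. Of the words of Cbx3, 7.72% are shared with other genes, most of them with Gm49164, which was listed at 0.

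The genes of H3K9 methylation ranged from a mean of 2.46 FPKM for Suv39h2 to 244.6 FPKM for Trim28. Trim28 (KAP1), the co-repressor that recruits SETDB1 to zinc-finger proteins, had 248.5, 239.9 and 245.5 FPKM and ranked 393 among the genes with a mean of at least 1 FPKM. Ehmt2 (G9a) had 108.4, 112.6 and 107.3 FPKM, and its partner Ehmt1 (GLP) had 29.3, 28.1 and 28.97. Although both proteins act as a heterodimer, Ehmt2 RNA lay 3.80-fold ± 0.174 (SD, n = 3) above Ehmt1. Setdb1, the methyltransferase recruited by TRIM28, had 28.2, 27.4 and 26.9 FPKM, and its range overlapped that of Ehmt1, although Ehmt1 was the higher in each library. The longest isoforms turned this order, to 18.3 FPKM for Setdb1 and 11.9 for Ehmt1 on average. The SUV39H enzymes, which methylate pericentric heterochromatin, were low. Suv39h1 had 6.26, 5.55 and 5.50 FPKM, and Suv39h2 had 2.99, 1.69 and 2.70. Their ratio was 2.09, 3.28 and 2.04, with an SD of 0.39 on the log2 scale (n = 3). Of the exonic bases of Suv39h1, 14.6% overlap the antisense gene Gm14820.

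All class I HDAC genes were above 20 FPKM. Hdac2 had 90.0, 82.2 and 84.2 FPKM, Hdac1 had 70.4, 70.6 and 70.0, and Hdac3, the catalytic subunit of NCoR and SMRT complexes, had 37.5, 36.5 and 36.4. Hdac1 lay at 0.824 ± 0.0395 (SD, n = 3) of Hdac2, and Hdac2 lay 2.32-fold ± 0.0756 (SD, n = 3) above Hdac3. Without division by length, the log2 ratio of Hdac1 to Hdac2 was -1.13, against -0.28 as deposited. Of the words of Hdac1, 29.3% occur in other genes. Gm10093, a processed pseudogene on chromosome 17 that holds 28.0% of all words of Hdac1, had 20.9, 21.4 and 19.3 FPKM. Adding it to Hdac1 gave 91.3, 92.1 and 89.4 FPKM, and the log2 ratio to Hdac2 became 0.090. The summed fragments, 1376, 1345 and 1327, were still fewer than those of Hdac2, with 2175, 1921 and 2019. Summing the genes was a choice made with their values in view.

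Among the class II HDACs, which shuttle between nucleus and cytoplasm or act on tubulin, 3 class IIa genes were high and 1 was near the limit of detection. Hdac4 had 64.2, 63.4 and 64.5 FPKM, Hdac7 had 51.4, 51.8 and 52.4, and Hdac5 had 50.0, 48.5 and 49.7. Hdac5 lay at 0.772 ± 0.00737 (SD, n = 3) of Hdac4. Their log2 ratio was -0.37 as deposited, -0.13 with the longest isoform and -0.71 without division by length. The order of Hdac4 and Hdac7 was set by the length used. With the longest isoforms, Hdac4 had 17.6 and Hdac7 32.7 FPKM on average. Hdac7 also had more fragments, 2422, 2364 and 2453, than Hdac4, with 2062, 1973 and 2055. Hdac9 had 0.913, 0.702 and 1.20 FPKM on 43, 32 and 56 fragments, and Hdac7 exceeded it by 56.3-fold, 73.8-fold and 43.8-fold. Hdac6, the tubulin deacetylase, had 10.1, 11.2 and 12.8 FPKM. The annotation of Hdac4 overlaps the lincRNA Gm26720 on the opposite strand over 22.4% of its exonic bases, and Gm26720 was listed at 0. Of 11 further genes of deacetylase complexes, 11 reached 1 FPKM in every library, from Chd4, the NuRD remodeller, at 141.6 ± 1.58 FPKM (SD, n = 3) down to Hdac11 at 3.26 ± 0.20 (SD, n = 3).

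SWI/SNF genes were all above 10 FPKM, but the order of the ATPases depended on length. Smarca2 (BRM) had 56.0, 58.6 and 56.3 FPKM, and Smarca4 (BRG1) had 24.1, 23.8 and 23.5, so Smarca4 lay at 0.418 ± 0.0125 (SD, n = 3) of Smarca2. Smarca2 has 46 annotated isoforms with a mean length of 1464 nt, whereas its longest measures 5921 nt. The corresponding lengths of Smarca4 are 5484 and 6376 nt, for 4 isoforms. Smarca4 had more fragments, 1907, 1821 and 1847, than Smarca2, with 1182, 1198 and 1179. The log2 ratio of Smarca4 to Smarca2 was -1.26 as deposited, 0.54 with the longest isoform and 0.65 without division by length. The direction between the ATPases is set by the length used. Arid1a (BAF250A) had 33.0, 33.5 and 32.5 FPKM and exceeded its alternative subunit Arid1b, with 12.9, 13.7 and 12.6, by 2.53-fold ± 0.0749 (SD, n = 3). Smarcb1 (SNF5), a core subunit, had 35.4, 29.8 and 31.6 FPKM, and its range overlapped that of Arid1a. Of 9 further SWI/SNF genes, 8 reached 10 FPKM in every library, with Smarce1 highest at 89.9 ± 2.74 FPKM (SD, n = 3). Actl6b, the neuronal counterpart of Actl6a, was listed at 0, which allows up to 0.206 FPKM from 3 fragments in the smallest library. Its counterpart had 42.2 ± 2.76 FPKM (SD, n = 3).

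Both acetyltransferase paralogs were present. Ep300 had 68.1, 71.2 and 69.4 FPKM and Crebbp had 41.0, 43.1 and 41.5, so that p300 RNA lay 1.66-fold ± 0.0128 (SD, n = 3) above CBP RNA, one of the steadiest ratios. The log2 ratio fell from 0.73 to 0.27 with the longest isoform and to 0.09 without division by length. Other acetyltransferase genes, 6 of 6, reached 10 FPKM in every library, from Kat7 at 63.4 ± 1.32 (SD, n = 3) to Kat2a at 18.5 ± 0.328. Histone demethylases did so in 9 of 9 cases, with Kdm5a highest at 55.2 ± 0.634 FPKM and Kdm6a lowest at 11.5 ± 0.425. Of 6 methyltransferases for other lysines of H3, 5 did so, with Setd2 highest at 51.1 ± 0.817 FPKM and Nsd1 lowest at 3.26 ± 0.0790. Over the 64 further genes examined, 63 reached 1 FPKM and 56 reached 10 FPKM in every library. The shares were 22.2% and 14.4% over all genes, and 48.5% and 34.8% over protein-coding genes. Detection did not set the members, with 45 and 40 of 48, apart from these further genes. The further gene below 1 FPKM was Actl6b.

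The HMGA genes exceeded all other members. Hmga1 (ENSMUSG00000046711, chr17:27556497-27563674 of GRCm38, plus strand) had 1191, 1103 and 1114 FPKM and ranked 46 among the 12905 genes with a mean of at least 1 FPKM. Hmga2 (ENSMUSG00000056758, chr10:120361275-120476469, minus strand), a gene known for high activity in embryonic and transformed cells, had 486.9, 486.5 and 493.2 FPKM and ranked 166. Hmga1 lay 2.45-fold, 2.27-fold and 2.26-fold above Hmga2. Hmga2 nevertheless had more fragments, 25534, 24695 and 25658 against 19272, 17271 and 17877, and the log2 ratio of Hmga1 to Hmga2 reversed from 1.22 to -0.48 without division by length. The level of Hmga1 is uncertain for another reason. Hmga1b, an annotated copy on chromosome 11 from 120762794 to 120764419, holds 46.9% of the words of Hmga1, and it was itself listed at 1277, 1269 and 1275 FPKM. With both added, Hmga1 reached 2468, 2372 and 2389 FPKM. The summed fragments, 35350, 32740 and 33803, were more than those of Hmga2 in each library. How the reads were divided between the genes was not tested.

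**Figure D2:**
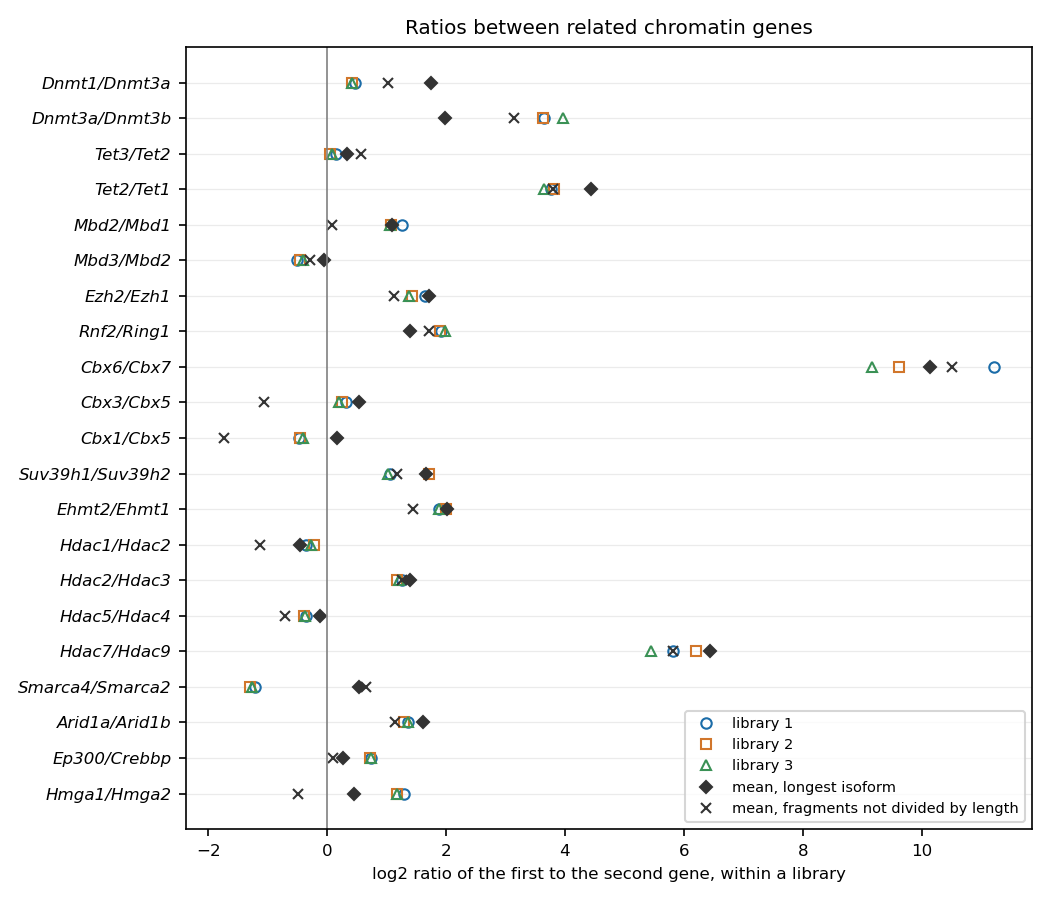
Log2 ratio of the first to the second gene of each pair within library 1 (circles), library 2 (squares) and library 3 (triangles), with the mean for the longest isoform (diamonds) and for fragments not divided by length (crosses). The library symbols lie on one side of 0 in every pair, while diamonds or crosses lie on the other side for Cbx3/Cbx5, Cbx1/Cbx5, Smarca4/Smarca2 and Hmga1/Hmga2.

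The spread between libraries was of the order of counting error for most members, but above it in the median. Fragments of each gene were compared over the 3 libraries with a chi-square test, for genes with a mean of at least 10 fragments, and adjusted with Benjamini-Hochberg over 13615 genes. Of the 47 members tested, 3 differed between libraries (6.38%), against 2.03% of all genes tested. Cbx7 had too few fragments. At an unadjusted p under 0.05, it was 12.8% of the members and 9.51% of all genes. The median chi-square value was 2.05 over the members tested and 1.59 over all genes tested, against 1.39 from counting error alone. Depth was not matched between the members and all genes, and its bearing on these shares was not tested. Of the 64 further genes examined, which include Actl6b without fragments, 1 was called at the adjusted limit.

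Hmga1 had the strongest difference, with 1191 FPKM in library 1 and 1103 and 1114 in the others (chi-square test, Benjamini-Hochberg adjusted p = 1.21e-12). Library 1 was high and libraries 2 and 3 were close. Its coefficient of variation (CV) was 4.23%, against 0.742% from counting error. Its copy Hmga1b had an adjusted p of 0.981, and the CV of Hmga2 was 0.770%, against 0.629% from counting error. Smarcb1 was likewise highest in library 1 (35.4 FPKM against 29.8 and 31.6, chi-square test, adjusted p = 0.00551). Suv39h2 was lowest in library 2, with 115, 63 and 103 fragments (chi-square test, adjusted p = 0.0425). Of the exonic bases of Suv39h2, 9.98% overlap other annotated genes, mainly Dclre1c on the opposite strand, and whether reads were counted by strand is not given in the sources used here. Each of these calls depended on a library. Without library 1, the chi-square test called 0 members and 0.786% of all genes. The chi-square adjusted p was then 0.956 for Hmga1, 0.886 for Smarcb1 and 0.274 for Suv39h2. Without library 2 it called Hmga1 alone, with a chi-square adjusted p of 2.69e-08, against 0.177 for Smarcb1 and 0.92 for Suv39h2. The share of all genes called without library 2 was 1.38%. Without library 3 the same 3 members were called, and 1.40% of all genes. The libraries are replicates of 1 condition, so these differences describe libraries and not a treatment.

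**Figure D3:**
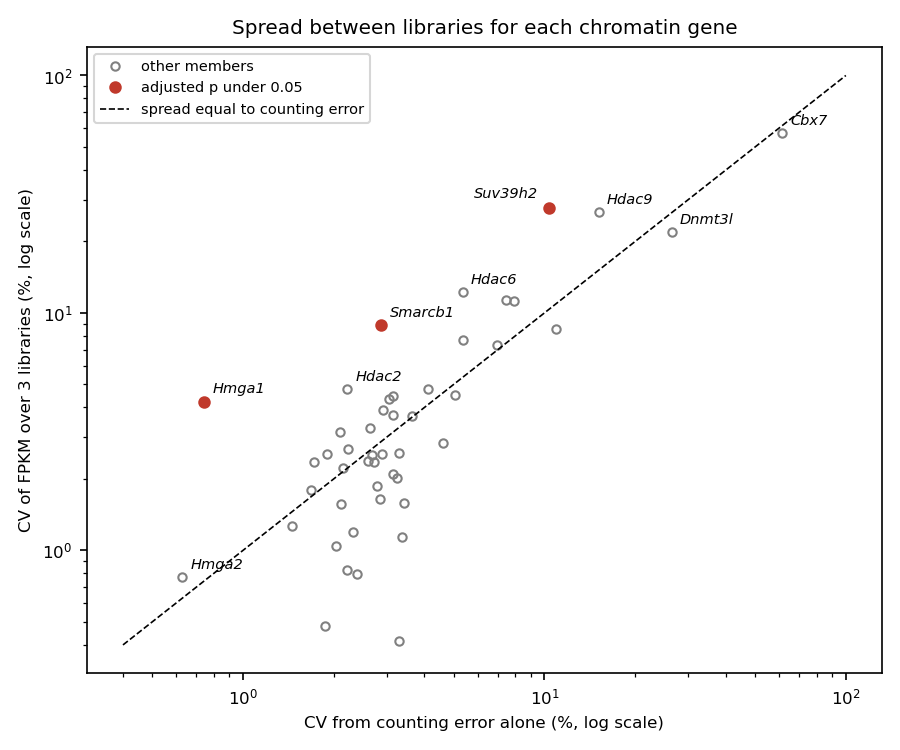
CV of FPKM over the 3 libraries (vertical axis, %, log scale) against the CV expected from counting error alone (horizontal axis, %, log scale), with 1 point per member. Points scatter around the dashed line of equality, 24 members above it and 24 on or below, and Hmga1, Smarcb1 and Suv39h2 (filled) are the members with an adjusted p under 0.05. With 3 libraries, counting error alone would leave fewer members above the line than below it, so the even split does not mean counting error alone.

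Members with few CG at their gene starts were not simply the low ones. Taking the window with the most CG for each gene, Hdac9 had 3 and Dnmt3l 6, and both lay under 1 FPKM on average. Hmga2 followed with 12, at 488.9 FPKM. Cbx7 had 33 at 0.109 FPKM, and Suv39h2 also had 33 at 2.46 FPKM. In all, 40 of the 43 members whose windows were used had at least 15, against 37.1% of all genes with a window by the same measure. Dnmt1 lists 3 starts with 2, 12 and 33 CG, and the FPKM values do not tell which of them was used.

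**Figure D4:**
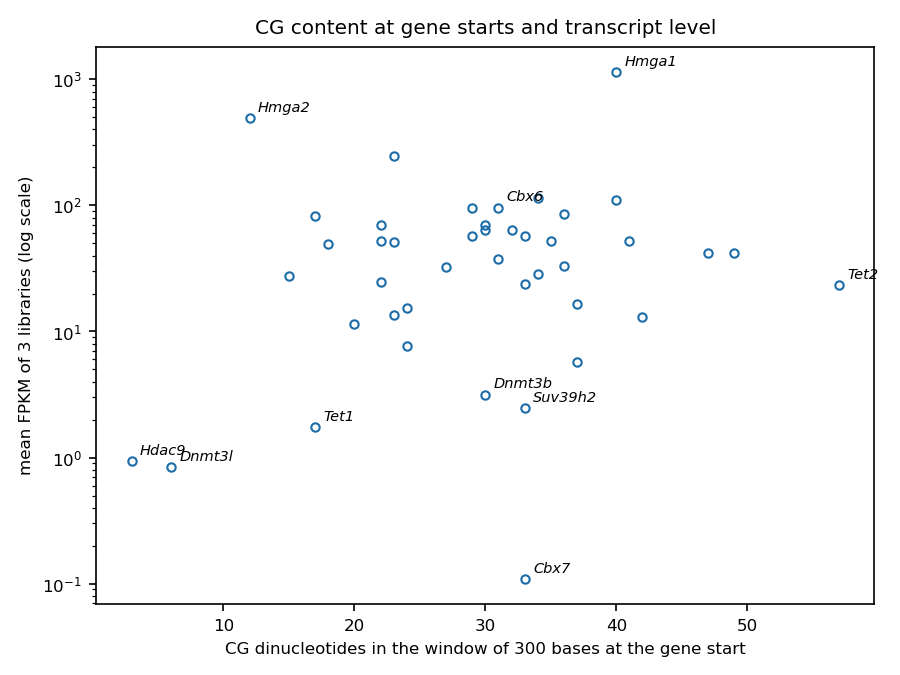
Number of CG dinucleotides in the 300-base window at the gene start (horizontal axis, the window with the most CG per gene) against mean FPKM of the 3 libraries (vertical axis, log scale) for the 43 members whose windows were used. Hdac9 and Dnmt3l lie at the lower left, Hmga2 at 488.9 FPKM with 12 CG, and Cbx7 at the bottom with 33 CG.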

How the data were processed

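UMI-RNAseq was measured in 3 libraries of NIH3T3 cells. According to the methods and the submitters' processing notes, tags were handled with UMI-tools 1.0.0, mapping used HISAT2 2.0.4, copies with a shared tag and position were collapsed, and HTSeq 0.6.1 counted reads per gene. The notes also name DESeq 1.10.1, without its role. The authors divided counts by gene length and library total and deposited FPKM, 1 column per library. Genome build and annotation are not given in the sources used here. Both deposited tables hold the same values, and 0 columns of values were left unused.

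FPKM values were used as deposited. Fragments were calculated as FPKM times gene length times library total (Python 3.11.15; numpy 2.4.6; pandas 2.3.3). The length was the mean isoform length in GENCODE M21 (GRCm38), rounded to a whole nucleotide, and the total was set from genes with 1 isoform, whose commonest low value is 1 fragment. Fragments came out whole, within 0.02 plus a relative allowance, for 48 of 48 members and 99.2% of the 26193 genes with fragments. The recovery and the chi-square test were tested on simulated fragments. These were drawn with counting error alone, so the check does not cover further spread between libraries. Intervals are exact Clopper-Pearson intervals (scipy 1.17.1) and cover counting error only. Shared sequence is the percentage of a gene's 75-nt words, on either strand, that occur in a transcript of another gene. Figures were drawn with matplotlib 3.10.9.

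The named genes are the 48 members, the highest and lowest gene of each list of further genes, and markers or copies beside a result, apart from some values that are not reported here. Members, pairs and lists were chosen with earlier results of these data known. Alternatives were TPM, median-of-ratios scaling, the longest isoform, undivided fragments, a pseudocount of 1, other limits, the median and leaving out each library. Adding the FPKM of genes that share over 5% of a member's words was added after the values were seen. AmpFISH imaging was not analysed here.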

Additional observations from a re-analysis of the deposited data

How the results depend on the processing

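No pairing of libraries across conditions was possible because the libraries share 1 condition. The ratios of related genes were taken within each library. Another length or a sum of genes gave 45 alternative values for the log2 ratios of the 21 pairs, of which 6, in 5 pairs, reversed. Without division by gene length, Cbx3/Cbx5 became -1.06, Smarca4/Smarca2 0.65 and Hmga1/Hmga2 -0.48. With the longest isoform, Cbx1/Cbx5 became 0.16 and Smarca4/Smarca2 0.54. With the FPKM of sharing genes added, chosen with the values in view, Hdac1/Hdac2 became 0.090. These settings differ from the reported values by the length or the genes summed alone. The other 126 alternative values could not reverse and say nothing about stability, since a scaling factor cancels within a library, a pseudocount keeps the sign, and each pair had 1 sign in all 3 libraries. No p-value could pass 0.05 at this number of libraries.

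The number of members with at least 1 FPKM in every library was 45, and between 44 and 48 under the alternatives. At 10 FPKM it was 40, and 34 with the longest isoform. The number of members that differed between libraries was 3, and ranged from 0 to 3 when 1 replicate was left out, while the share of all genes called went from 2.03% to between 0.786% and 1.40%. With a mean of at least 1 fragment it was 2, at 1.32% of all genes, since the adjusted p of Suv39h2 rose to 0.0608 with more genes tested. With the longest isoform, the level of a member was 0.228 to 0.954 times that reported. Depth limits Cbx7, with 8 fragments in all, and Dnmt3l, with 43.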
